A study of Mus musculus with 33 samples.

Results

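The lists of H3K4me3 peaks from ganglionic eminences of Dlx1/2 knockout (KO) and wild-type (WT) mouse embryos at e13.5 were compared. Every peak on chromosomes 1 to 19 was taken, which gave 112738 of the 114965 KO peaks and 99880 of the 102359 WT peaks. These came from 2 of the 33 samples of the series, 1 ChIP sample for each genotype, and neither labels nor file headers say whether a list stands for 1 sequenced library or a merger of several. The KO tissue was labelled Dlx1/2-/- and the WT tissue carried neither mutation, and both were CD1. The tissue was the whole embryonic basal ganglia, with progenitor and mantle zones of the lateral, medial and caudal eminences together. Native chromatin from nuclei of this tissue was cut with micrococcal nuclease, and mono- and dinucleosomes were precipitated with an antibody against H3K4me3. The labels do not say which cells or how many embryos a sample holds, and a mark on fewer cells cannot be told apart from less of the mark per cell.

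Trimethylation of lysine 4 of histone H3 marks the promoters of active genes and of genes kept ready for activation. In developing tissue it often lies on the same promoters as H3K27me3, the mark of Polycomb repression, and wide H3K4me3 domains are typical of genes that specify cell identity. DLX1, DLX2 and DLX5 are homeodomain transcription factors of the subpallium that bind DNA at enhancers and promoters of genes of GABAergic neurons. No annotation of the build of these files (mm9) was used here, so sites are given by position and without gene names.

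The stretch on which the genotypes differed most was 15.6 kb long and lay on chromosome 2, at chr2:71368511-71384091. The authors' deposited table listed it as higher in WT with a score of 262, the highest of that list. KO peaks of H3K4me3 covered 2.12% of it, and WT peaks covered 100%. H3K27me3, H3K27ac and H3K4me1 showed the same gap. KO peaks of these marks covered 0.340%, 1.44% and 0% of the stretch, while WT peaks covered 100% for each. The KO gap ran from position 71368656 to 71383906 for H3K4me3, and for all 4 marks it was between 15.3 and 16.6 kb long. In WT tissue the stretch held 3 DLX1 peaks, 11 DLX2 peaks and 3 DLX5 peaks. On the KO side, H3K4me3 continued directly at both edges. The KO peak to the left had an enrichment of 16.7 over 7.69 kb. The KO peak to the right had an enrichment of 8.45 over 18.1 kb, and the single WT peak that spans the stretch had an enrichment of 14.6 over 34.7 kb. Enrichment here is the fold of ChIP over input that the authors' peak caller gave each peak. Within 45 kb of the centre of the stretch, the authors' deposited table lists 3 regions higher in KO right of the gap, the widest of them at chr2:71384627-71389710. To the left, within the same distance, it lists 3 short regions higher in KO and 2 higher in WT. Dlx1 and Dlx2, the genes inactivated in the knockout, are neighbours on chromosome 2 in the RefSeq table, which is of another build (GRCm38). Whether the stretch holds them was not tested, and absence of its DNA in KO cannot be told apart from absence of the marks in peak lists.

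A second wide region had lower H3K4me3 in KO over most of its length. At chr6:6782685-6833963 KO tissue had 6 peaks that added up to 35.4 kb with a mean enrichment of 6.13, and WT tissue had 1 peak of 51.3 kb with an enrichment of 12.5. This was the lowest log2 KO/WT enrichment (-1.02) of the 18941 regions that had a −log10 q of at least 5 and at least 1 kb of peaks in both genotypes. H3K27ac, the mark of active promoters and enhancers, had an enrichment of 2.20 in KO and 5.57 in WT there. H3K27me3 had 14.9 in KO and 10.6 in WT. The region held 5 DLX1, 14 DLX2 and 3 DLX5 peaks. The sources used here do not say which input a list was called against. The labels name 1 histone input for each genotype besides one for WT H3K4me1, so the marks of a genotype may share an input.

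**Figure D1:**
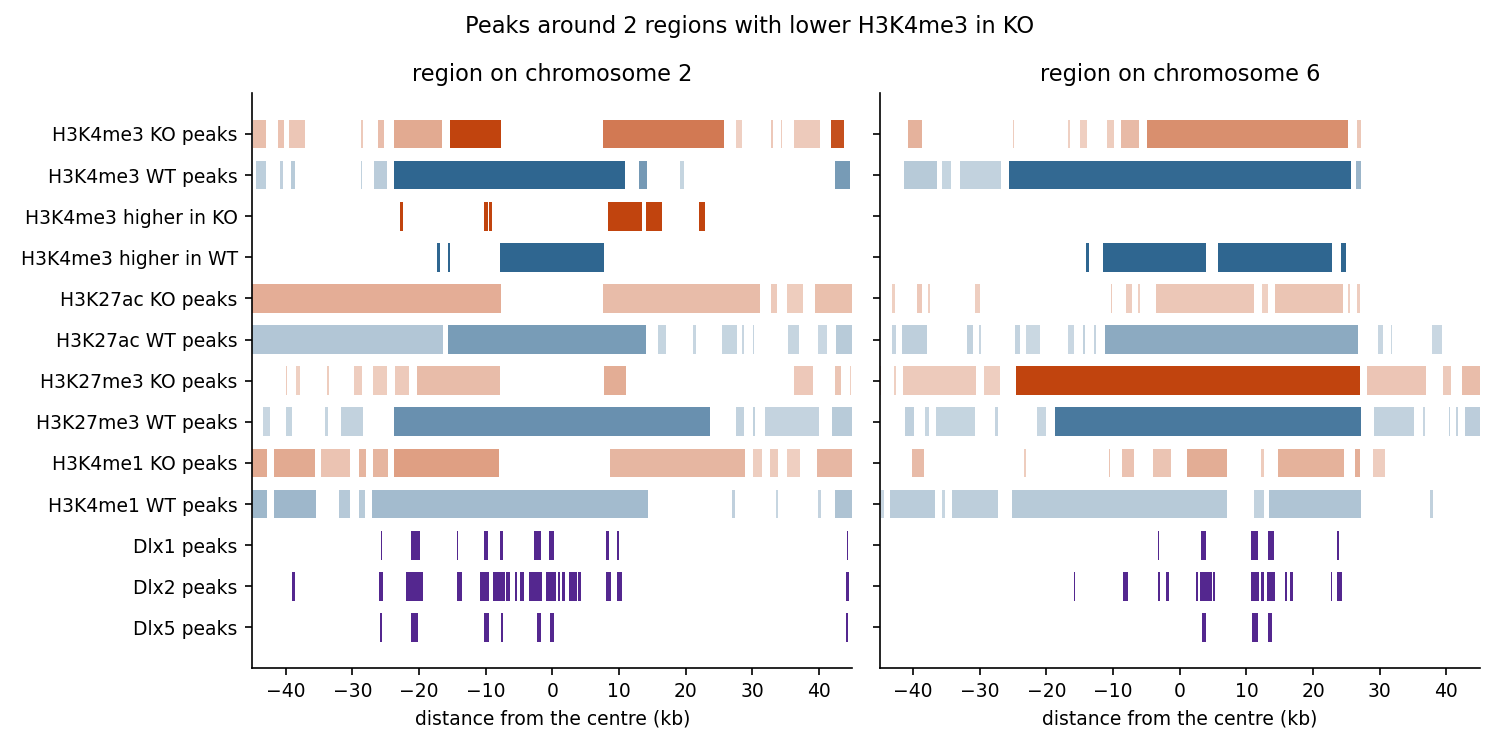
Peaks within 45 kb of the centre of the stretch on chromosome 2 (left) and of the region on chromosome 6 (right), for the KO and WT lists of each histone mark, the authors' H3K4me3 regions higher in KO and higher in WT, and the 3 DLX factors in WT tissue. The x axis is the distance in kb, each bar is 1 peak, and darker bars of a histone mark have a higher enrichment. The KO lists of all 4 marks leave the same central 15.3 to 16.6 kb empty on chromosome 2, while on chromosome 6 the KO H3K4me3 peaks are shorter and paler than the WT peak of 51.3 kb.

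Outside these regions the H3K4me3 maps of the genotypes were close to each other wherever the mark was strong. KO and WT peaks that share at least 1 base were merged, which gave 134530 regions. Of these, 73055 held peaks of both genotypes, 37401 held KO peaks only and 24074 held WT peaks only. Over the shared regions, log2 enrichment in KO and in WT had a Pearson r of 0.970 and a Spearman rho of 0.895, given as a description across regions of 1 list a genotype. In 94.2% of the shared regions each genotype had exactly 1 peak. KO peaks covered 161 Mb and WT peaks 147 Mb. The median peak was 789 bases wide with an enrichment of 1.95 in KO, and 814 bases wide with an enrichment of 2.21 in WT. The lists reach down to a −log10 q of 0 and to an enrichment of 1.47 in KO and 1.66 in WT, so most of their peaks are weak. With a −log10 q of at least 5 there were 22850 KO peaks and 22803 WT peaks. Their median widths were 2859 bases in KO and 2709 bases in WT, and their median enrichments were 10.9 in KO and 10.2 in WT. Read depth is unknown from these files, and with 1 peak list for each genotype no difference below has a replicate check or a p-value. The 95% intervals are exact binomial intervals over peaks or regions and cover counting error only.

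Peaks found in one genotype only were almost all weak. Of the KO peaks, 33.2% had no WT peak, and of the WT peaks, 24.1% had no KO peak. KO-only peaks had a median width of 380 bases and a median enrichment of 1.59, and WT-only peaks had 415 bases and 1.78. Among peaks with a −log10 q under 0.5, 57.2% of KO peaks and 48.0% of WT peaks were in one genotype only. For −log10 q of 1.3 to 5, the shares were 1.86% in KO and 1.68% in WT. At 5 or above, 5 KO peaks and 4 WT peaks had no counterpart. No KO peak of 5 kb or more lacked a WT peak (0 of 5673, which allows a share of up to 0.0529%), and 5 of 5125 WT peaks of that width lacked a KO peak.

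**Figure D2:**
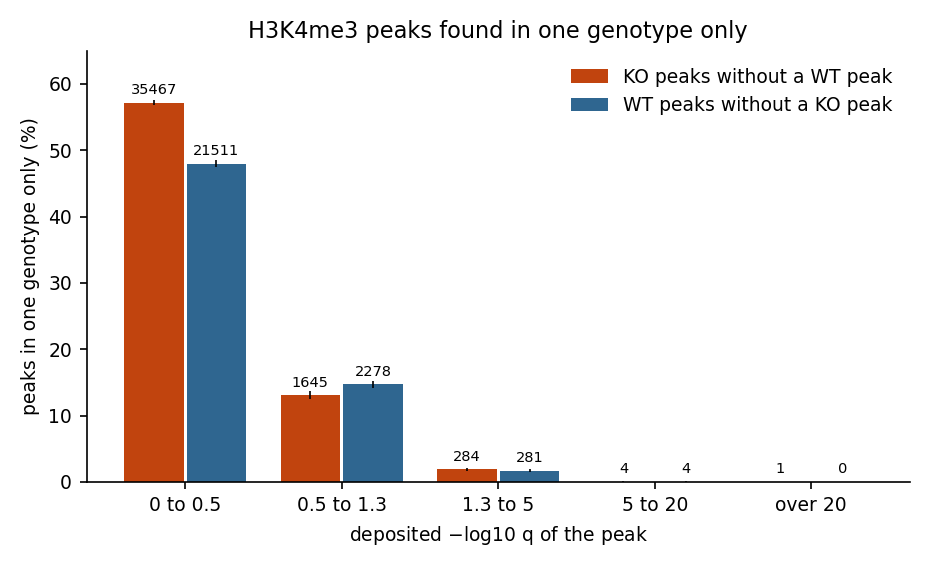
Percentage of H3K4me3 peaks found in one genotype only (y axis), by the deposited −log10 q of the peak (x axis), for KO and WT peaks. Error bars are 95% exact binomial intervals and the numbers above the bars are counts of peaks, which drop to 4 KO and 4 WT peaks at −log10 q of 5 to 20 and to 1 KO and 0 WT peaks above it.

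The strongest KO-only peak was at chr13:115721196-115722667, with an enrichment of 9.90 and a −log10 q of 22.0. KO tissue also had weak peaks of H3K27me3 (2.14), H3K27ac (1.55) and H3K4me1 (2.84) there, and WT tissue had no peak of any of the 4 marks. The next KO-only peaks lay at chr17:36294752-36295322, chr2:32458000-32458544, chr2:132846049-132846361 and chr1:33771257-33772176, with enrichments of 5.93, 5.94, 5.91 and 4.50. None of these 5 sites held a DLX peak, and among all KO-only peaks 0.620% (232 of 37401) did. Among all WT-only peaks the share was 3.72%. The strongest WT-only peak was at chr10:116991406-116992157, with an enrichment of 6.21 and a −log10 q of 10.9. The other named WT-only peaks were on chromosome 17, at chr17:6491722-6492369, chr17:24134083-24135531, chr17:6489201-6489568 and chr17:49143953-49145040. They had enrichments of 5.18, 4.81, 4.80 and 4.14, and the last of them held a DLX2 peak. At that site H3K4me1, the mark of enhancers and of promoter flanks, had an enrichment of 2.46 in KO and 5.24 in WT.

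Peaks that overlapped DLX binding were split unevenly between the genotypes. DLX peaks were mapped in WT tissue at e13.5 in samples separate from the H3K4me3 ones, and the lists held 8341 DLX1, 16885 DLX2 and 2913 DLX5 peaks. Choosing sites by binding in WT tissue can itself favour sites with H3K4me3 in WT. How much this adds, here and in the later comparisons by DLX peaks, was not tested. Of KO peaks that overlapped peaks of all 3 factors, 0.611% (10 of 1636) had no WT peak. Of WT peaks with all 3 factors, 7.67% (136 of 1773) had no KO peak. Without any DLX peak the shares were 37.1% in KO and 26.7% in WT. Peaks with DLX binding were stronger than the others, so the shares were also taken among peaks with a −log10 q of 0.5 to 5. There, with all 3 factors, 0.151% of KO peaks (1 of 661, interval 0.00383% to 0.840%) and 6.28% of WT peaks (50 of 796, interval 4.70% to 8.20%) were in one genotype only. Without a DLX peak the shares were 8.10% in KO and 8.35% in WT. Seen from the DLX side, 62.1% of DLX1 peaks lay in KO H3K4me3 peaks and 66.1% in WT peaks. For DLX2 the shares were 82.2% in KO and 87.2% in WT, and for DLX5 they were 81.4% in KO and 89.0% in WT.

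At shared regions the median log2 KO/WT enrichment was -0.012 (interval -0.014 to -0.0089), but it depended on how strong the region was. It was -0.16 at regions with a mean enrichment under 2, -0.051 at 2 to 3, 0.031 at 3 to 6, 0.10 at 6 to 12 and 0.13 above 12. The mean here is the geometric mean of the KO and WT values. At the 21264 shared regions with a −log10 q of at least 5 in both genotypes, the median was 0.11, with median enrichments of 11.3 in KO and 10.5 in WT. The lists were therefore shifted against each other, KO being higher at strong regions and lower at weak ones. The KO list starts at 1.47 and the WT list at 1.66, and these lower limits enter the medians of weak regions. Genotype, sample and, at weak regions, these limits cannot be told apart as the source of this shift. Because of the limits, a region with a mean under 2 could be over 1.5-fold lower in KO but not over 1.5-fold higher. KO enrichment was over 1.5-fold higher at 904 regions (1.24%) and over 1.5-fold lower at 2001 regions (2.74%). Among regions with a −log10 q of at least 5 these counts were 111 higher and 27 lower.

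**Figure D3:**
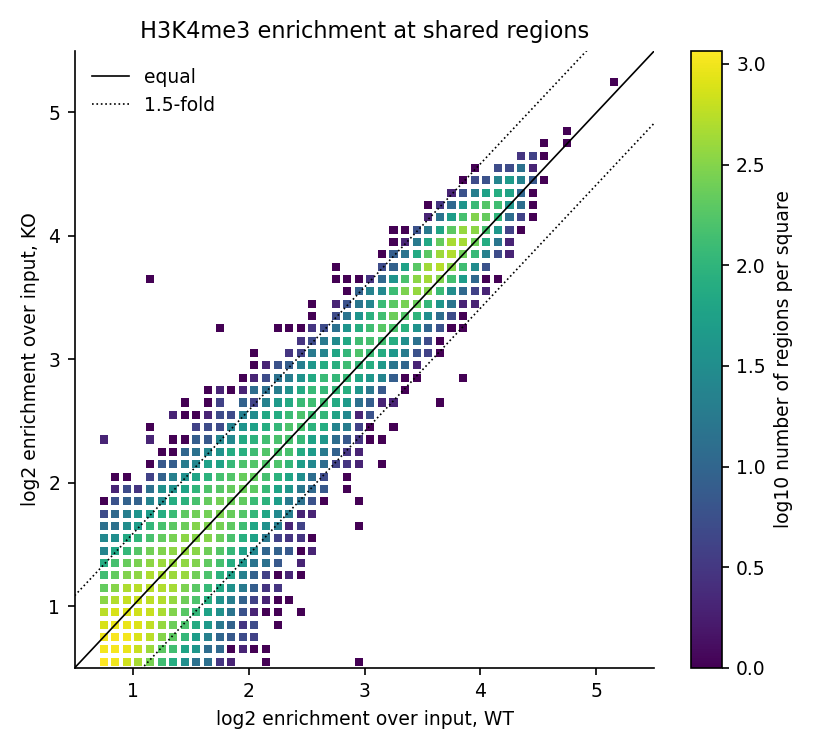
H3K4me3 enrichment over input at the 73055 shared regions, on log2 scales, KO on the y axis and WT on the x axis. The colour gives the number of regions in each square on a log10 scale, the solid line marks equal values and the dotted lines mark 1.5-fold differences, and 904 regions lie above the upper dotted line and 2001 below the lower one.

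Shared regions were slightly wider in KO. The median log2 KO/WT width was 0.085, with median summed widths of 1159 bases in KO and 1055 bases in WT, and 0.052 at regions with a −log10 q of at least 5. More KO than WT peaks made up 2.44% of the shared regions and more WT than KO peaks made up 3.10%. Change of width and change of enrichment were weakly related across regions (Spearman rho -0.12).

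The sites with the highest KO/WT enrichment among strong shared regions were mostly short. At chr17:35495777-35496914 the enrichment was 13.0 in KO and 6.62 in WT over about the same width, a log2 difference of 0.98. The regions chr17:26574454-26576918, with 12.7 in KO and 6.77 in WT, and chr2:24037199-24038414, with 9.21 in KO and 4.93 in WT, came next. At chr16:59470774-59473586 it was 16.8 in KO and 9.82 in WT. These 4 sites held no DLX peak. The fifth was a wide domain at chr13:95635946-95659998, with 9.61 over 21.6 kb in KO and 5.64 over 22.0 kb in WT, 6 DLX2 peaks, and an H3K27ac enrichment of 3.65 in KO and 1.97 in WT. WT H3K27me3 peaks covered 100% of it.

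At the low end, the site next to the chromosome 6 domain was a wide domain as well. At chr2:158423809-158443860 KO tissue had 3 peaks over 13.8 kb with an enrichment of 6.97, and WT tissue had 1 peak over 20.1 kb with 13.9. It held 1 DLX1 peak and 4 DLX2 peaks, and H3K27ac had an enrichment of 2.32 in KO and 4.53 in WT. At chr6:140804447-140806343 the enrichment was 5.22 in KO and 8.72 in WT, with 1 DLX1 peak and 1 DLX2 peak. The sites chr19:5756014-5758668, with 4.63 in KO and 7.83 in WT, and chr17:28148861-28152119, with 3.87 in KO and 6.35 in WT, held no DLX peak, and H3K27ac there was close between the genotypes.

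Wide domains were found in both genotypes. Peaks of 5 kb or more numbered 5673 in KO (5.03% of peaks) and 5125 in WT (5.13%), and held 27.8% of the bases in peaks in each genotype. Their median enrichment was 11.8 in KO and 11.0 in WT, against 1.90 in KO and 2.16 in WT for narrower peaks. Of 6418 shared regions with a wide peak in either genotype, 4226 had one in both, 1366 in KO only and 826 in WT only. In the regions wide in KO only, the widest peak had a median of 5672 bases in KO and 4164 bases in WT, and in 613 of them WT had more than 1 peak. In those wide in WT only, the widest peak had a median of 4241 bases in KO and 5617 bases in WT, and in 425 of them KO had more than 1 peak. These medians lie just above and just below the limit of 5 kb.

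The median log2 KO/WT enrichment was 0.099 at wide regions (interval 0.095 to 0.10) and -0.031 at narrow regions, a difference of 0.13. At regions with a −log10 q of at least 5 it was 0.11 at wide and 0.11 at narrow regions, and with both lists held to that threshold before merging the difference was -0.00045. Within a mean enrichment of 6 to 12 the median was 0.10 at wide and 0.10 at narrow regions, and above 12 it was 0.13 at wide and 0.14 at narrow regions. Over all strengths, large differences were rarer at wide regions. KO was over 1.5-fold higher at 14 of them (0.218%) and over 1.5-fold lower at 8 (0.125%), compared with 1.34% higher and 2.99% lower at narrow regions. Within a mean enrichment of 6 to 12, 0.160% of wide and 0.896% of narrow regions were over 1.5-fold higher in KO, and 0.120% of wide and 0.190% of narrow regions were over 1.5-fold lower. Above 12 the order for higher regions was the other way, with 0.187% of wide (5 of 2676) and 0.115% of narrow regions (7 of 6079), and no region of either class was over 1.5-fold lower (which allows up to 0.112% of wide and 0.0494% of narrow regions).

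With chromosome 18 left out, the 5 widest domains were found in both genotypes, 4 of them with nearly the same summed width. At chr11:3022122-3100215 the peak was 78.1 kb in KO and 78.1 kb in WT, with enrichments of 11.46 in KO and 14.51 in WT. This site lies at the start of the chromosome, and how well reads map there was not tested. The domain chr6:52137465-52204726 had 9 KO peaks over 58.0 kb with an enrichment of 4.07 and 1 WT peak over 67.0 kb with 3.97. It had the highest H3K27me3 enrichment of the 5 widest, 17.2 in KO and 17.4 in WT. The others were chr7:86640433-86696176 (14.3 in KO, 13.1 in WT), chr7:77467341-77522936 (10.7 in KO, 8.86 in WT) and chr13:78299343-78354836 (13.7 in KO, 11.53 in WT).

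WT H3K27me3 covered part of 44.3% of the KO peaks and 47.9% of the WT peaks. The H3K27me3 list is as permissive as the others, and once its peaks needed a −log10 q of 5 or more the shares were 11.4% of KO peaks and 12.5% of WT peaks. Wide peaks carried H3K27me3 more often. At that threshold 56.2% of wide KO peaks and 58.1% of wide WT peaks overlapped H3K27me3, against 9.07% of narrow KO peaks and 10.0% of narrow WT peaks. The contrast was smaller among peaks whose own −log10 q was at least 5, where 60.4% of wide and 33.6% of narrow KO peaks, and 61.8% of wide and 33.9% of narrow WT peaks overlapped it. A wide peak has more bases in which an overlap can fall.

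Regions with both marks had a median near equality, slightly to the KO side. The median log2 KO/WT enrichment was 0.035 at shared regions with any H3K27me3 (interval 0.032 to 0.038) and -0.069 at those without, a difference of 0.10. With the stricter H3K27me3 list it was 0.095 with and -0.040 without. Regions with H3K27me3 were the stronger ones for H3K4me3. Within a mean H3K4me3 enrichment of 6 to 12 the medians were 0.099 with and 0.10 without H3K27me3, and above 12 they were 0.14 with and 0.13 without. KO H3K4me3 was over 1.5-fold lower at 96 of the 11154 regions with strict H3K27me3 (0.861%) and over 1.5-fold higher at 48 (0.430%). Over all strengths both shares were below those at regions without strict H3K27me3, of which 3.08% were over 1.5-fold lower and 1.38% over 1.5-fold higher. These shares mix regions of different strength. At a mean H3K4me3 enrichment under 2, 2.08% of regions with strict H3K27me3 (18 of 867) and 2.51% without (494 of 19670) were over 1.5-fold lower. At the regions with strict H3K27me3, H3K27me3 itself had a median enrichment of 4.61 in KO and 5.01 in WT. These regions were chosen by WT H3K27me3 peaks, which can favour the WT value. Of the 6418 wide regions, 3586 had strict H3K27me3, with a median log2 KO/WT of 0.11, and 2832 had none, with 0.083.

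Below a mean enrichment of 6, shared regions with DLX peaks had lower KO/WT H3K4me3 than regions of like strength without them. Of the shared regions, 12298 held a DLX peak, 1651 of them peaks of all 3 factors, 2719 of 2 and 7928 of 1. The median log2 KO/WT enrichment was -0.069 with all 3 factors (interval -0.084 to -0.053), 0.014 with 2, 0.035 with 1 and -0.017 with none. Regions with DLX peaks were stronger, with a median WT enrichment of 4.20 against 2.46 without, so the shift with strength given above enters these medians. Within a mean enrichment of 2 to 3 the median was -0.24 with 3 factors, -0.20 with 2, -0.13 with 1 and -0.031 with none. In the bin from 3 to 6 it was -0.075 with 3, -0.051 with 2, 0.0056 with 1 and 0.050 with none. Between 6 and 12 the medians were 0.074, 0.10, 0.10 and 0.10 for 3, 2, 1 and 0 factors, and above 12 they were 0.15, 0.13, 0.14 and 0.13.

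Regions over 1.5-fold lower in KO made up 6.30% of those with all 3 factors (104 of 1651, interval 5.18% to 7.58%), 4.38% with 2, 2.96% with 1 and 2.54% with none. Regions over 1.5-fold higher in KO made up 0.182% with all 3 factors (3 of 1651), 0.110% with 2, 0.479% with 1 and 1.42% with none. At a mean enrichment under 2, 10.5% of regions with all 3 factors (14 of 133) and 2.27% of those without a DLX peak were over 1.5-fold lower in KO. At 2 to 3, 14.2% of regions with all 3 factors (61 of 431, interval 11.0% to 17.8%) and 4.87% of those without a DLX peak were. Over 12-fold enrichment, 0 of 175 regions with 3 factors (allowing up to 1.71%) and 0 of 6319 without a DLX peak (up to 0.0475%) were. Widths had the same order. At a mean enrichment of 2 to 3 the median log2 KO/WT width was -0.14 with 3 factors, -0.046 with 2, 0.0083 with 1 and 0.17 with none.

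**Figure D4:**
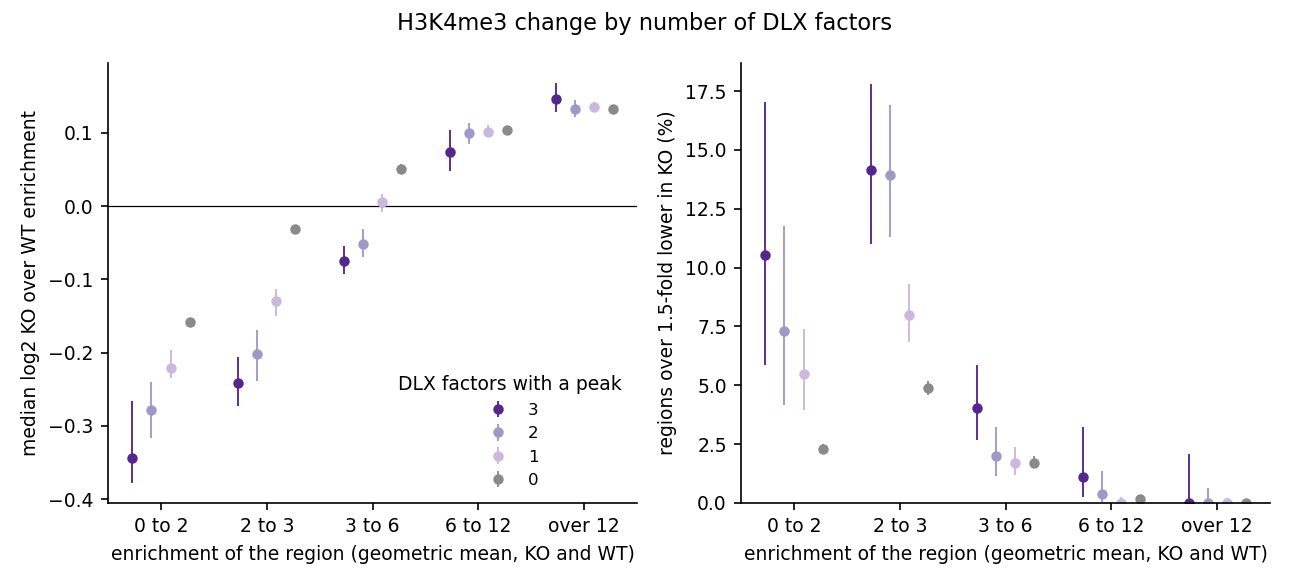
Change of H3K4me3 at shared regions by the number of DLX factors with an e13.5 peak in the region (colours) and by the enrichment of the region (x axis, geometric mean of KO and WT). The left panel shows the median log2 KO/WT enrichment with its 95% interval over regions and the right panel the percentage of regions over 1.5-fold lower in KO with exact binomial intervals. Below 6-fold the points fall with each added factor in the left panel, and above 12-fold all lie between 0.13 and 0.15.

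The strength of DLX2 binding went with the change. DLX2 had the most peaks, and 11480 shared regions held at least 1. Split into 4 classes by the enrichment of their strongest DLX2 peak, the lowest class had a median log2 KO/WT of 0.073 with 2.25% of regions over 1.5-fold lower, and the highest class had -0.070 with 6.06%. Within a mean H3K4me3 enrichment of 2 to 6 the medians were -0.028 in the lowest class (1351 regions) and -0.11 in the highest (2001 regions). Above 6 they were 0.13 and 0.11. Spearman's rho between DLX2 enrichment and log2 KO/WT was -0.19 over the 11480 regions, which share both H3K4me3 lists. The median WT H3K4me3 enrichment was 5.83 in the lowest class and 3.75 in the highest. The shift with strength therefore enters this rho and the medians over all strengths. Regions with DLX1 alone (598) and DLX5 alone (164) had medians of 0.090 and 0.10 and were strong, with median WT enrichments of 11.3 and 10.4. The 7166 regions with DLX2 alone had 0.026 and a WT enrichment of 3.92.

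H3K4me1 was read at the same regions. At narrow shared regions with all 3 factors the median H3K4me1 enrichment was 4.22 in KO and 4.28 in WT, against 3.70 in KO and 3.63 in WT at narrow regions without a DLX peak. Where the mean H3K4me3 enrichment was under 2, H3K4me1 had 3.14 in KO and 3.47 in WT with all 3 factors, and 3.27 in KO and 3.20 in WT without a DLX peak. The narrow regions with all 3 factors had a median log2 KO/WT of -0.13 for H3K4me3 (interval -0.15 to -0.12), -0.11 for H3K27ac and -0.010 for H3K4me1. Narrow regions without a DLX peak had -0.029 for H3K4me3, -0.050 for H3K27ac and 0.025 for H3K4me1.

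The authors' own comparison of H3K4me3 between the genotypes covered 36374 autosomal regions. The authors' deposited table put 1643 of them (4.52%) higher in KO, 343 (0.943%) higher in WT and 34388 in common. The direction of the lists was checked on the peaks. Of the list taken as higher in KO, 1542 of the 1643 regions lay in a region with the higher enrichment in KO. Of the list taken as higher in WT, 273 of the 343 lay in one with the higher enrichment in WT. For that list the check held at 197 of 205 regions with a WT enrichment under 6, and at 76 of 138 with 6 or more. For the list higher in KO these were 316 of 324 and 1213 of 1306. KO also had the higher enrichment at 68.8% of the common regions, so the checks are read against that share. By WT enrichment the share of the common regions was 54.6% under 6 and 78.7% at 6 or more. The regions higher in KO were strong, with median enrichments of 12.6 in KO and 11.0 in WT. Those higher in WT were weaker, with 3.18 in KO and 4.65 in WT. Wide peaks held 56.8% of the regions higher in KO, 40.2% of those higher in WT and 29.0% of the common ones. Strict WT H3K27me3 overlapped 41.3% of the regions higher in KO, 23.6% of those higher in WT and 32.6% of the common ones. These shares mix regions of different strength. Where the WT enrichment was 6 or more, wide peaks held 65.9%, 81.9% and 39.1% in the same order. Strict H3K27me3 overlapped 49.2%, 46.4% and 47.1% there. Where the WT enrichment was under 6, the shares were 22.2%, 12.2% and 14.5% for wide peaks. For strict H3K27me3 they were 10.8%, 8.29% and 11.96%.

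DLX peaks were common in the regions higher in WT. They lay in 13.8% of the regions higher in KO (interval 12.2% to 15.6%), 51.6% of those higher in WT (interval 46.2% to 57.0%) and 25.6% of the common regions. Peaks of all 3 factors lay in 0.974% of the regions higher in KO, 17.5% of those higher in WT and 3.25% of the common ones. Regions of the 2 one-sided lists were short, with median widths of 480 bases for those higher in KO and 511 bases for those higher in WT, against 1157 bases for the common ones. Between 400 and 800 bases the DLX shares were 14.5% for regions higher in KO, 50.5% for those higher in WT and 17.1% for the common ones. Where the WT enrichment was under 6, they were 8.95%, 66.8% and 27.6% in the same order, and at 6 or more they were 15.2%, 29.0% and 24.2%. Without chromosome 2 they were 14.0%, 53.6% and 25.5%.

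Read the other way, the authors' deposited table placed 1.34% of the 1194 regions with all 3 DLX factors higher in KO and 5.03% of them higher in WT. Of the 27158 regions without a DLX peak, it placed 5.21% higher in KO and 0.611% higher in WT. Regions with 2 factors had 1.51% higher in KO and 2.53% higher in WT, and regions with 1 factor had 3.02% higher in KO and 1.09% higher in WT.

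**Figure D5:**
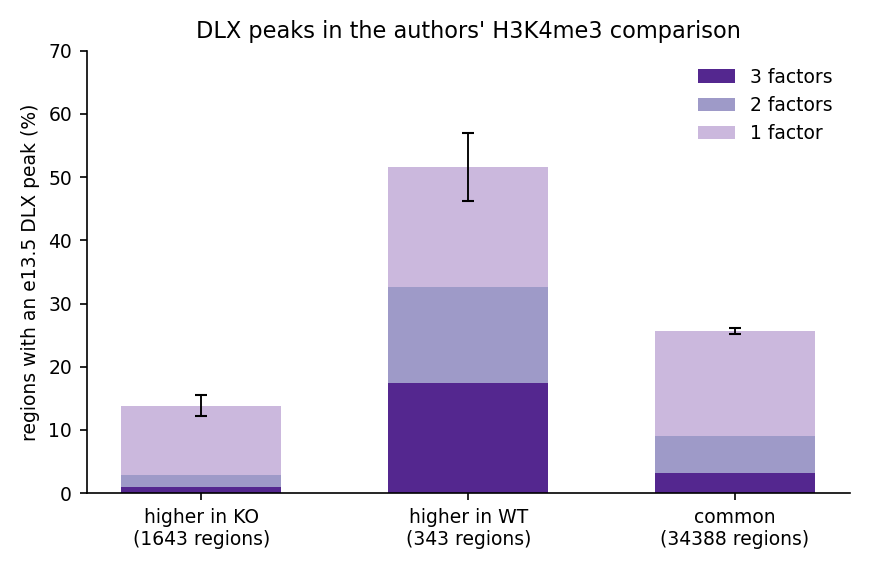
Percentage of the regions of the authors' H3K4me3 comparison that hold an e13.5 DLX peak (y axis), for regions higher in KO, regions higher in WT and common regions. Colours split the bars by the number of DLX factors and error bars are 95% exact binomial intervals of the whole bar, with totals of 13.8%, 51.6% and 25.6%.

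Of the 5 highest scores among regions higher in KO, 4 belonged to sites with a weak WT peak or none. The authors' deposited table gave chr13:115721313-115722694 a score of 156 and chr17:36294786-36295246 a score of 84.8, both at KO-only peaks named above. At chr4:119031815-119032779 the H3K4me3 enrichment was 12.5 in KO and 2.28 in WT, with H3K27ac at 3.35 in KO and no WT H3K27ac peak. The site chr2:155618862-155619240 had a KO peak with an enrichment of 3.41 and no WT peak. The fifth, chr2:71384627-71389710, borders the gap on chromosome 2, in a region with an enrichment of 9.54 in KO and 14.2 in WT. Among regions higher in WT, the authors' deposited table gave chr17:24133963-24134912 a score of 67.1 and chr4:114953297-114953874 a score of 42.4, and neither had a KO peak. At chr17:15673012-15674068 the enrichment was 1.47 in KO and 7.68 in WT. At chr6:147002819-147003277, with 1 DLX1 and 1 DLX2 peak, KO tissue had no peak and WT tissue had one with an enrichment of 2.77.

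Of the 60 regions higher in WT with all 3 DLX factors, the 5 with the highest scores are given here, a choice made after the values were seen. They include the gap on chromosome 2 and chr6:6814049-6831167, which lies in the chromosome 6 domain. At chr11:87844903-87846064 the H3K4me3 domain was 1.47 kb wide in KO and 5.44 kb in WT, with nearly equal enrichments of 3.76 in KO and 3.64 in WT. At chr17:3482050-3485270 the enrichment was 1.84 over 2.81 kb in KO and 4.74 over 7.44 kb in WT, with H3K27ac at 2.09 in KO and 3.14 in WT and H3K4me1 at 4.07 in KO and 3.96 in WT. At chr9:72222986-72223335 it was 1.73 in KO and 2.69 in WT, and H3K27ac had no peak in KO and one with 2.35 in WT. Of the 16 regions higher in KO with all 3 factors, the highest score was at chr17:36367902-36368698, with an enrichment of 9.38 in KO and 3.47 in WT.

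The other marks were read at the same regions. At the regions higher in KO the median log2 KO/WT enrichment of H3K27ac was -0.027 over 1563 regions with peaks in both genotypes. At those higher in WT it was -0.25 over 298 regions (interval -0.28 to -0.22), and at the common regions it was -0.064. H3K4me1 had medians of 0.021 at regions higher in KO, -0.092 at regions higher in WT and 0.014 at common regions. Where regions higher in WT held DLX peaks, the median was -0.26 for H3K27ac and -0.15 for H3K4me1, and where they held none it was -0.23 for H3K27ac and -0.023 for H3K4me1. These marks may share the histone inputs with H3K4me3, so the values stand side by side and are not separate support for the lists.

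Of the regions with the most DLX peaks, those lower in KO were the region with the chromosome 2 gap and one at the start of chromosome 11. The domain chr13:83850950-83891980 held 40 DLX peaks, with an enrichment of 20.5 in KO and 17.5 in WT. The domain chr3:34535105-34572178 held 27, with 16.8 in KO and 14.8 in WT. The domain chr7:86640433-86696176 also held 27, with 14.3 in KO and 13.1 in WT. The regions chr11:3022122-3100215 and chr9:3015143-3032883 held 39 and 38 and had enrichments of 11.46 in KO and 14.51 in WT, and of 6.33 in KO and 6.05 in WT. The chromosome 2 region that contains the gap, chr2:71352491-71402038, held 31, with 9.54 in KO and 14.2 in WT.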

How the data were processed

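Peak lists and comparison lists were used as deposited. The submitters' processing notes name build mm9 and, besides Trim Galore and deepTools, BWA 0.7.16a, MACS2 and SAMtools. For MACS2 no version or threshold is stated in the sources used here. The deposited lists give each peak a fold enrichment over input (a ratio, by the authors' caller) and −log10 p and q values. The authors' comparison of genotypes gives each region a score, a log10 likelihood ratio per the file headers. Each condition had 1 sample per the labels, so nothing was tested across samples.

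Computed here with Python 3.11.15, numpy 2.4.6, pandas 2.3.3 and scipy 1.17.1: KO and WT peaks sharing 1 base were merged, and a region's enrichment is the mean fold of its peaks weighted by width. The merging was tested on simulated sites with at most 1 peak of the same width in each genotype and no lower limit of enrichment. This does not cover split peaks, width changes or weak peaks near the limits of the lists. Wide means a single peak of 5 kb or more. Shares have Clopper-Pearson intervals and medians order-statistic intervals. Named sites are the 5 most extreme of each kind: one-genotype peaks by −log10 q, shared regions by log2 KO/WT, regions by width and by DLX peaks, and the authors' one-sided regions by score, with chromosome 18 counted but not named. Members, classes and named rules were chosen with earlier results of these data known. RNA counts, DLX peaks of other ages and contigs were not used.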

Additional observations from a re-analysis of the deposited data

How the results depend on the processing

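Limits come first. There was 1 peak list for each genotype, of unknown depth, so genotype cannot be separated from sample, and small shifts in median enrichment carry no replicate error. The lists are permissive, so weak regions set the counts over all peaks. No paired analysis was possible because each genotype had 1 H3K4me3 list and no test was made. Of 51 alternative values, 10 stayed within the interval of the value reported, 27 moved out of it and 14 changed sign.

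The share of KO peaks without a WT peak was 6.24% with a −log10 q of at least 5 in both lists, 44.5% when at least 50% of a peak's bases had to be shared, and 0.0219% with the threshold on KO peaks alone. For WT peaks without a KO peak these were 5.90%, 33.6% and 0.0175%. The median log2 KO/WT enrichment turned positive at −log10 q of at least 5 (0.11) and for single overlapping peaks (0.027), and was -0.015 with the highest peak of each region. The median width change was 0.054 and 0.061 under the first 2 of these settings.

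The difference of wide minus narrow regions was -0.00045 at −log10 q of at least 5, 0.096 for single peaks, 0.14 and 0.12 at limits of 4 and 8 kb and 0.14 with the WT width. Within enrichments of 6 to 12 and above 12, strata chosen after seeing the data like all enrichment strata here, it was -0.0015 and -0.0095. The H3K27me3 difference was 0.045 at −log10 q of at least 5, 0.14 with strict H3K27me3, 0.026 with 50% coverage, and -0.0047 and 0.0045 in those strata. The DLX difference over all shared regions (0.034) was -0.0073 at −log10 q of at least 5, 0.010 for single peaks, -0.00027 for at least 2 factors, -0.052 for all 3, -0.013 at narrow and 0.0093 at wide regions. By enrichment it was -0.080, -0.13, -0.074, -0.0040 and 0.0036, from weak to strong. Its sign over all regions thus depends on the mix of strengths.

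Of WT peaks, 39.5% overlapped H3K27me3 at −log10 q of at least 5 in both lists and 33.1% over 50% of their bases. DLX peaks lay in 28.0% of WT peaks with −log10 q of at least 5, and peaks of at least 2 factors in 4.70%. DLX shares of the authors' lists by WT enrichment, also chosen after seeing the data, were 8.95% for regions higher in KO at under 6, and 66.8% under 6 and 29.0% from 6 up for those higher in WT.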

Other observations

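The regions of the authors' comparison that differed between genotypes were dense near the gap on chromosome 2. In the authors' deposited table, 37.9% of 29 regions within 0.1 Mb of the gap were higher in KO and 10.3% were higher in WT. Between 0.1 and 5 Mb away the shares were 8.30% higher in KO and 3.49% higher in WT of 229 regions, and between 5 and 20 Mb they were 7.31% and 1.66% of 301. Farther than 50 Mb they were 4.42% higher in KO and 0.967% higher in WT, against 4.40% and 0.887% on the other chromosomes. The reason for this was not tested. Across chromosomes the share higher in KO was between 3.23% and 6.42%, highest on chromosome 1, and the share higher in WT was between 0.340% and 1.66%, highest on chromosome 17. Chromosome 17 also held 4 of the 5 named WT-only peaks, of which chr17:6489201-6489568 and chr17:6491722-6492369 lie close together. Of all its WT peaks 26.1% had no KO peak, against a median of 24.1% and a maximum of 27.2% across chromosomes.

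Few long stretches were covered by peaks of one genotype alone. There were 2 stretches of at least 5 kb inside KO peaks without a WT peak, and 8 inside WT peaks without a KO peak. The KO stretches were 6.71 kb at chr1:97553772-97560482, in a peak with an enrichment of 14.2, and 5.93 kb next to the gap at chr2:71396112-71402038. The WT stretches included 8.14 kb inside the chromosome 6 domain and 3 on chromosome 2 between positions 77727940 and 77820912, at WT enrichments of 1.94, 2.00 and 2.11 and −log10 q under 1.

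A pair of regions at the start of chromosomes 9 and 11, chr9:3015143-3032883 and chr11:3022122-3100215, held 15 DLX5 peaks each, more than DLX2 peaks (13 each), although the DLX5 list is the shortest. No region was left out here for poor mapping, and mapping at this pair was not tested, so their peaks need caution.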
